A study of Rattus norvegicus with 2 samples.

Results

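Neuronal and synaptic genes were examined in lens epithelial cells (LECs) of Shumiya cataract rats (SCRs), as a list of 50 genes that encode parts of the synapse, neuronal adhesion molecules, RNA-binding proteins, cytoskeletal proteins, enzymes and noncoding RNAs. Of these, 47 were read by a probe set that names 1 gene, out of 18166 genes read in that way. The list was chosen by gene symbol with the Cat+ over Cat- ratios of these same arrays already known, and *Snhg11* and *Cbln2* were known to be low. The values below are therefore a description, and no p-value is given.

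The Cat+ sample came from 5-week-old SCRs with the *Lss* s/*Lss* l genotype, which leads to cataract. The Cat- sample came from 5-week-old SCRs with the *Lss* s/*Lss* s genotype, whose lenses stay clear. Both groups thus carry the *Lss* s allele, and no source used here gives the *Fdft1* alleles of these animals. Each sample was RNA from the lens capsules, with their attached LECs, of 2 eyes, hybridized to 1 GeneChip Rat Gene 2.0 ST array. With 1 array in each group there is no error between animals, and whether the 2 eyes came from 1 animal is not stated. In such bulk RNA, fewer cells of a type and less RNA per cell cannot be told apart.

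Neurons release transmitter when SNARE proteins fuse synaptic vesicles with the cell membrane, and adhesion molecules such as neurexins and neuroligins hold the opposite sides of the synapse together. Cerebellins are secreted proteins that bridge neurexins to receptors on the opposite cell. Lens fiber cells are elongated like neurons, and work on rodent lenses has found that fibers share with neurons many genes for vesicle proteins, RNA-binding proteins and adhesion molecules. Outside the nervous system many neuronal genes are held down by the repressor REST, which binds a DNA element called RE1.

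The deposited values are log2 signals, so a difference of 1 between the samples is a ratio of 2. The array median was 5.69 in Cat+ and 5.67 in Cat-, and signals ran from 4.13 to 12.56 in Cat+ and from 4.13 to 12.50 in Cat-. The size rule of the study, a ratio under 0.5 or over 2, was kept. For the 291 genes that have several probe sets, the spread of Cat+ minus Cat- between the probe sets of a gene was taken. Its pooled standard deviation (SD) around the gene mean was 0.17 on the log2 scale, a factor of 1.13. This SD is used below as a yardstick for small differences; it covers probe sets and not animals. Following the rule for the list, members with a Cat- signal at or above the median of that array (32 genes, called bright here) were read apart from those below it (15 genes, called dim). The nearest members on the bright side were *Elavl3* and *Gad1*, with Cat- signals of 5.69 and 5.70. The nearest on the dim side were *Mapt* and *Meg3*, with 5.67 and 5.66. The table has no detection calls, so a dim probe set may hold little more than background.

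In the Cat+ sample, 2 of the 47 members passed the size rule, both downward, and none passed it upward. *Snhg11*, a long noncoding RNA gene that hosts small nucleolar RNAs, gave a signal of 5.23 in Cat+ against 8.25 in Cat- on the log2 scale, a ratio of 0.124. *Cbln2*, which encodes cerebellin 2, gave 5.37 in Cat+ against 7.24 in Cat-, a ratio of 0.273. Both signals lay above the array median in Cat- and under the array median in Cat+. Among all 18166 genes, *Snhg11* ranked 3 and *Cbln2* ranked 14 counted from the lowest ratio. Over all genes, 0.308% had a ratio under 0.5 and 0.0055% a ratio over 2. As this contrast was known when the list was made, the share of members past the rule carries no further information.

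**Figure D1:**
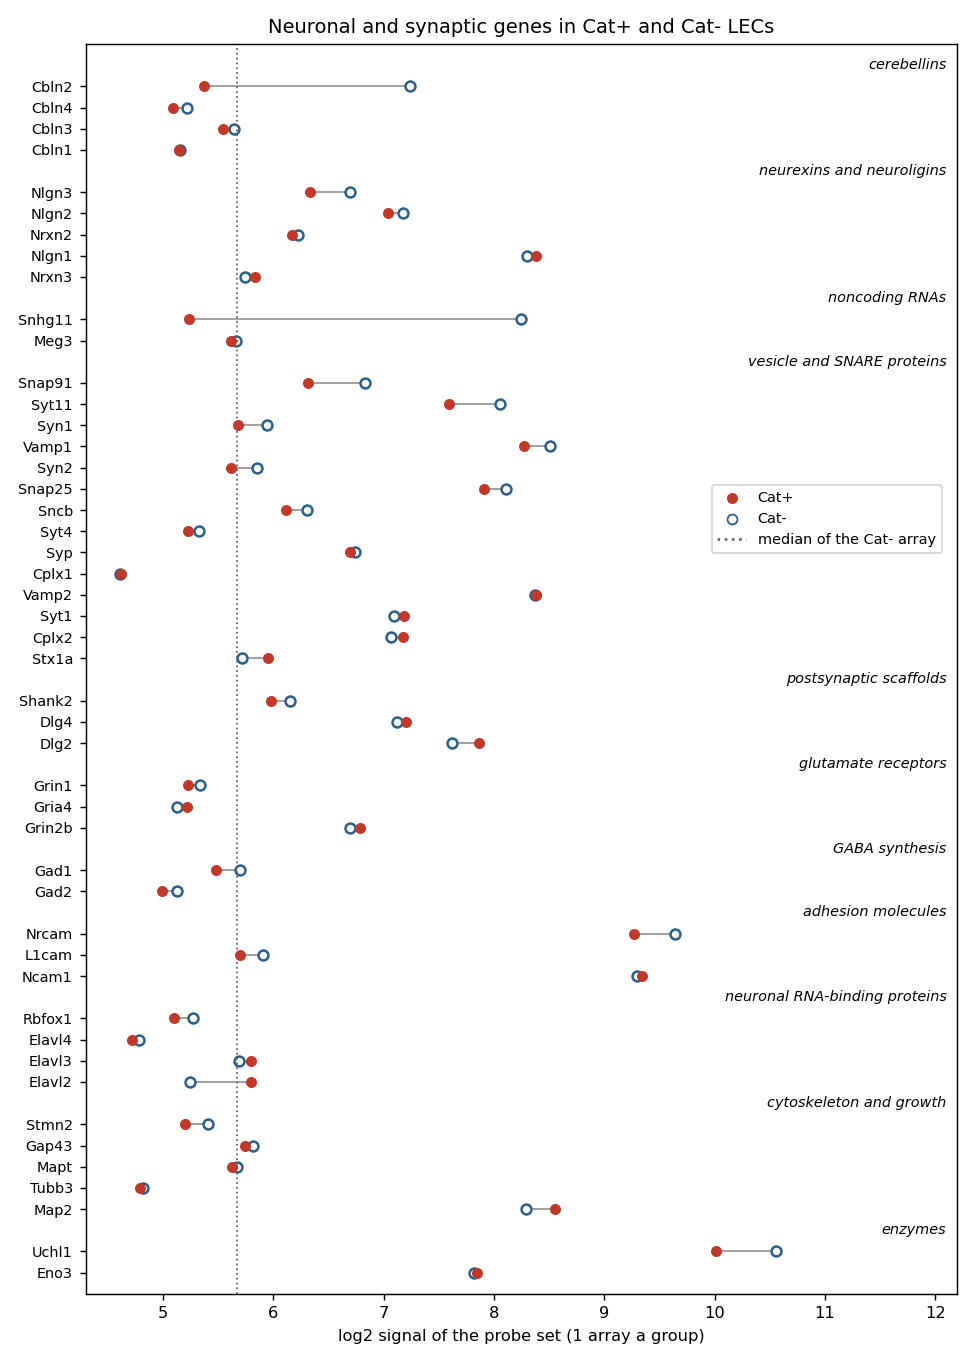
Log2 signal of each of the 47 measured members in the Cat+ sample (filled circles) and the Cat- sample (open circles), 1 array a group, grouped by role and ordered within a role by the difference; the dotted line is the median of the Cat- array, 5.67. *Snhg11* and *Cbln2* are the members whose circles lie farthest apart, and both cross from above the line in Cat- to below it in Cat+.

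The sequence windows around the annotated start sites of *Snhg11* and *Cbln2* are shown because these are the members that differed most. They are RefSeq windows of build GRCr8, from 250 bases before to 50 bases after the start site, written 5′ to 3′ on the strand of the gene, with each CpG dinucleotide in capitals.
*Snhg11*, chr3:167451022-167451321, plus strand: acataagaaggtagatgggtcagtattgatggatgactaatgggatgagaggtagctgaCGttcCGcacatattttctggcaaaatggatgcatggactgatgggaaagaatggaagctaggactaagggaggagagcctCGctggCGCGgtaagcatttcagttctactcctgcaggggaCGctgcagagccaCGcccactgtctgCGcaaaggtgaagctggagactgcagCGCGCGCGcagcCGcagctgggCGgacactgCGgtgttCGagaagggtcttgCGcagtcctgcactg
*Cbln2*, chr18:82215953-82216252, plus strand: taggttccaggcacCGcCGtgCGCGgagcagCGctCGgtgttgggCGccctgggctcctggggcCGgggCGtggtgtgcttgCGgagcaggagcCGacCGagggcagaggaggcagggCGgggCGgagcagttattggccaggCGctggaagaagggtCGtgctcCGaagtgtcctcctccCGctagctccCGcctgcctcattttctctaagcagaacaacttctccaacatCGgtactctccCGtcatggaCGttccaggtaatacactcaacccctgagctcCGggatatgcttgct
The *Snhg11* window held 17 CpG and the *Cbln2* window 23, against a median of 21 in the windows of 9138 bright genes and of 15 in those of 14564 genes on the array. In *Snhg11* the CpG are gathered in the part nearest the start site, while in *Cbln2* they run along the whole window. The *Cbln2* window belongs to a start site inside the annotated span of the gene, and other start sites were not examined.

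Windows were found for 34 of the 50 members, too few for a check of base composition over the list, which is void. Short motifs were searched on both strands of these windows, and a match is a description of letters and not of binding. The left arm of RE1, TTCAGCACC, was found in 0.379% of 27457 windows and among the members in that of *Elavl4* alone, a neuronal RNA-binding protein gene. The right arm, GGACAGC, was in 6.64% of all windows and among the members in that of *Tubb3*, and no member window held both arms with 2 bases between them, as 0.00728% of all windows did. A cAMP response element, TGACGTCA, which reads the same on both strands, was in 1.91% of all windows and in those of *Meg3*, *Syn1* and *Vamp1*. All windows held a median of 7 CpG, and those of genes on the array 15. The element contains a CpG, so its share over all windows is not matched to genes on the array. The heat shock element (GAA, TTC and GAA, each 2 bases apart), in 0.736% of all windows, was in no member window. The Maf motif TGCTGAC, in 4.41% of all windows, was in that of *Tubb3*. None of these motifs was in the windows of *Snhg11* or *Cbln2*. The matched stretches of the element and the RE1 arm are shown with 8 bases on either side and the match in capitals, each on the strand of its gene, so that the arm in *Elavl4* appears as its reverse complement.
*Meg3*, chr6:134273982-134274005, plus strand: gaatgcgcTGACGTCAaagaccac
*Syn1*, chrX:3725547-3725570, plus strand: aggcgggcTGACGTCActctccag
*Vamp1*, chr4:159698815-159698838, plus strand: ggagatttTGACGTCAtccacgag
*Elavl4*, chr5:130367791-130367815, minus strand: agctcctgGGTGCTGAAcgttgaga
The ratios of the 3 genes with the element were 0.968 for *Meg3*, 0.834 for *Syn1* and 0.845 for *Vamp1*, and that of *Elavl4*, a dim member, was 0.958.

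The genes that lie next to *Snhg11* and *Cbln2* were read after the values of both were known. In gene order along GRCr8, the 5 nearest measured genes on either side of *Snhg11* had ratios from 0.788 to 1.01, with 9 of the 10 lower in Cat+ and none under 0.5. Over all genes 51.2% were lower in Cat+. *Ralgapb*, the next measured gene after it, encodes a subunit of a GTPase activator and gave 8.16 in Cat+ and 8.42 in Cat-, a ratio of 0.832. *Slc32a1*, the vesicular GABA transporter, had 5.67 in Cat+ and 5.82 in Cat-, a ratio of 0.900. Around *Cbln2* the 10 nearest measured genes ran from 0.779 to 1.26, with 5 lower in Cat+ and none under 0.5. *Neto1*, which encodes an accessory protein of glutamate receptors and lies next to *Cbln2*, had 4.86 in Cat+ and 5.08 in Cat-, a ratio of 0.855. Both named genes were picked for a ratio under 0.5, which 0.308% of all genes had. That they stood apart from the genes beside them was therefore set by that choice.

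**Figure D2:**
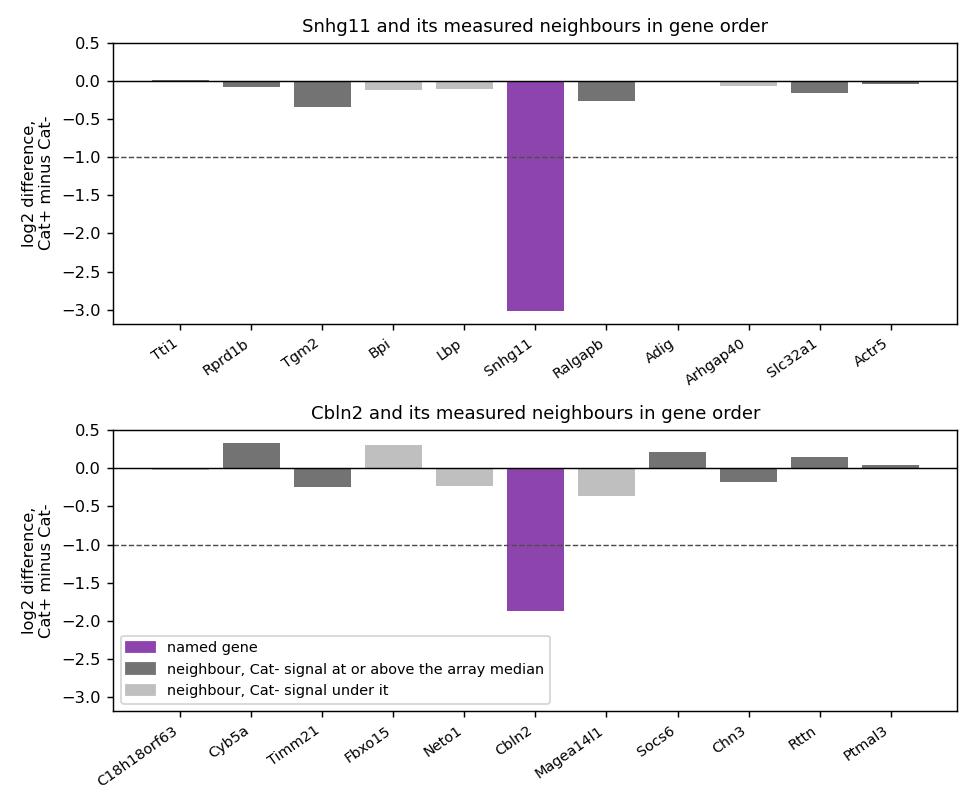
Log2 difference, Cat+ minus Cat-, of *Snhg11* (upper panel) and *Cbln2* (lower panel) and of the 5 nearest measured genes on each side, in gene order and not to scale along the chromosome; the dashed line marks a ratio of 0.5. Dark grey bars are genes with a Cat- signal at or above the array median and light grey bars genes under it. The named genes were picked for lying past the dashed line, and no neighbour reaches it.

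The other cerebellins had ratios near 1. *Cbln1*, the founding member of the family from the cerebellum, gave 5.15 in Cat+ and 5.15 in Cat-, a ratio of 0.998. *Cbln3*, which in mice is secreted together with cerebellin 1, had 5.54 in Cat+ and 5.64 in Cat-, and *Cbln4* had 5.10 in Cat+ and 5.22 in Cat-, with ratios of 0.934 and 0.919. These 3 were dim in Cat-, so that the family had a single bright member and a difference like that of *Cbln2* could not have been seen in them.

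The partners of the cerebellins on the cell surface were all bright. The neurexins *Nrxn2* and *Nrxn3*, presynaptic receptors, had ratios of 0.963 and 1.06, both within the SD between probe sets. Among the neuroligins, their postsynaptic partners, *Nlgn3* gave 6.33 in Cat+ and 6.69 in Cat-, a ratio of 0.779. *Nlgn2*, the neuroligin of inhibitory synapses, had 7.04 in Cat+ and 7.18 in Cat-, a ratio of 0.911. *Nlgn1*, that of excitatory synapses, had 8.38 in Cat+ and 8.30 in Cat-, a ratio of 1.06. Lower signals in Cat+ were seen for 3 of these 5 genes and higher ones for 2, and *Nlgn3* alone differed by more than that SD.

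The other noncoding RNA, *Meg3*, is expressed from the maternal copy of an imprinted locus. It gave 5.62 in Cat+ and 5.66 in Cat-, a ratio of 0.968. As a dim member it leaves little room for a lower signal, so it cannot be set against *Snhg11*.

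The vesicle and SNARE proteins made the largest role, with 14 genes measured, 12 of them bright. Of the 14, 9 were lower and 5 higher in Cat+, and 7 of the lower genes and 1 of the higher ones differed by more than the SD between probe sets. Among all bright genes of the array 21.9% were lower and 14.8% higher by as much, and among all dim genes 9.35% and 14.3%. *Snap91*, which encodes the clathrin adaptor AP180 that helps to take vesicles back up, had 6.31 in Cat+ and 6.83 in Cat-, a ratio of 0.698. *Syt11*, a synaptotagmin that does not bind calcium, had 7.59 in Cat+ and 8.05 in Cat-, a ratio of 0.727. These were the lowest ratios of the role, and neither passed the size rule.

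The synapsins tether vesicles to the cytoskeleton. *Syn1* had 5.68 in Cat+ and 5.94 in Cat-, a ratio of 0.834, and *Syn2* had 5.62 in Cat+ and 5.85 in Cat-, a ratio of 0.851. Both lay close to the array median, and in Cat+ both were under the median of that array. *Sncb*, beta synuclein, had 6.12 in Cat+ and 6.30 in Cat-, a ratio of 0.880. *Syp*, the vesicle membrane protein synaptophysin, had 6.69 in Cat+ and 6.74 in Cat-, a ratio of 0.971. Synaptophysin thus differed by less than that SD.

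The SNARE genes differed in both directions. *Snap25*, a SNARE protein of the cell membrane, had 7.91 in Cat+ and 8.11 in Cat-, a ratio of 0.867. *Vamp1*, a SNARE protein of the vesicle, had 8.27 in Cat+ and 8.51 in Cat-, a ratio of 0.845, while *Vamp2*, its close relative, had 8.38 in Cat+ and 8.37 in Cat-, a ratio of 1.01. *Stx1a*, syntaxin 1A of the cell membrane, was higher in Cat+. Its brighter probe set gave 5.95 in Cat+ and 5.72 in Cat-, a ratio of 1.17, and its other probe set gave 5.91 in Cat+ and 5.76 in Cat-, a ratio of 1.11. *Syt1*, the calcium sensor for release, had 7.19 in Cat+ and 7.09 in Cat-, and *Cplx2*, a complexin that clamps the SNARE complex, had 7.18 in Cat+ and 7.07 in Cat-, with ratios of 1.07 and 1.08. The calcium sensor and the complexin were therefore higher by less than the SD between probe sets, beside lower *Snap25* and *Vamp1*.

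Of the postsynaptic scaffolds, 3 were measured, all bright. *Dlg2*, or PSD-93, had 7.86 in Cat+ and 7.62 in Cat-, a ratio of 1.19, and *Dlg4*, or PSD-95, had 7.20 in Cat+ and 7.13 in Cat-, a ratio of 1.06. *Shank2*, which ties receptor complexes to actin, had 5.98 in Cat+ and 6.15 in Cat-, a ratio of 0.891. *Homer1* was not measured here by a probe set of its own. Only *Dlg2* of these 3 differed by more than the SD between probe sets.

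The glutamate receptor genes were mostly dim. *Grin2b*, a subunit of the NMDA receptor, was the bright one, with 6.79 in Cat+ and 6.69 in Cat-, a ratio of 1.07. *Grin1*, the subunit common to NMDA receptors, had 5.23 in Cat+ and 5.33 in Cat-, and *Gria4*, an AMPA receptor subunit, had 5.22 in Cat+ and 5.13 in Cat-. All 3 differed by less than the SD between probe sets. *Gria2* was named only on a probe set that also names a microRNA gene, with 5.00 in Cat+ and 5.03 in Cat-, and it is left out of the counts; *Gria1* was not measured here. The enzymes that make GABA from glutamate were dim or next to the median, with ratios of 0.860 for *Gad1* and 0.907 for *Gad2*.

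Among the adhesion molecules, all bright, *Nrcam*, a neuronal member of the L1 family, had 9.27 in Cat+ and 9.64 in Cat-, a ratio of 0.772. *L1cam*, the founder of that family, had 5.70 in Cat+ and 5.91 in Cat-, a ratio of 0.868. *Ncam1*, the neural cell adhesion molecule, had 9.34 in Cat+ and 9.29 in Cat-, a ratio of 1.03. *Nrcam* and *L1cam* were thus lower by more than the SD between probe sets, and *Ncam1* differed by less than it.

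The RNA-binding proteins held the highest ratio of the list. *Elavl2*, or HuB, which stabilizes messages in neurons and germ cells, had 5.80 in Cat+ and 5.24 in Cat-, a ratio of 1.47. It was the only dim member whose Cat+ signal exceeded the median of the Cat+ array. *Elavl3* had 5.80 in Cat+ and 5.69 in Cat-, a ratio of 1.08, *Elavl4* had 4.72 in Cat+ and 4.78 in Cat-, and the splicing factor gene *Rbfox1* had 5.10 in Cat+ and 5.27 in Cat-, a ratio of 0.888. No relative of *Elavl2* in the list had a ratio above 1.08.

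Of the cytoskeletal genes, *Map2*, which binds microtubules in dendrites, had 8.55 in Cat+ and 8.29 in Cat-, a ratio of 1.20. It was the bright member with the highest ratio. *Gap43*, a protein of growing axons, had 5.74 in Cat+ and 5.81 in Cat-, a ratio of 0.952. The general neuron markers *Tubb3*, *Stmn2* and *Mapt*, for a neuronal tubulin, stathmin 2 and tau, were dim in both samples, with Cat+ signals of 4.79, 5.20 and 5.63 and Cat- signals of 4.82, 5.41 and 5.67.

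*Uchl1*, a ubiquitin hydrolase abundant in neurons, gave 10.01 in Cat+ against 10.56 in Cat- on the log2 scale, a ratio of 0.684. After *Snhg11* and *Cbln2* it had the lowest ratio of the list. *Eno3*, beta enolase, is better known from muscle than from neurons and had 7.84 in Cat+ and 7.82 in Cat-, a ratio of 1.02.

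Taken over the 32 bright members, 19 were lower and 13 higher in Cat+, where 55% of the 11085 bright genes of the array were lower. Their median log2 difference was -0.10, against -0.02 over all bright genes, and it was -0.06 without *Snhg11* and *Cbln2*. With the split set at the 75th percentile of Cat- in place of its median, the lower direction was lost. The 17 members then bright had a median of 0.01, and 8 of them were lower in Cat+. The share of all genes lower at that split is not given here, so these counts have no yardstick. By more than the SD between probe sets, 14 bright members were lower and 3 higher, where 21.9% of all bright genes were lower and 14.8% higher by as much. The 14 were *Snhg11*, *Cbln2*, *Uchl1*, *Snap91*, *Syt11*, *Nrcam*, *Nlgn3*, *Syn1*, *Vamp1*, *Syn2*, *Gad1*, *Snap25*, *L1cam* and *Sncb*, and the 3 were *Map2*, *Dlg2* and *Stx1a*. Apart from *Snhg11* and *Cbln2*, the bright members had ratios from 0.684 to 1.20. The bright and dim classes were themselves set on the Cat- signal, and over the whole array bright genes were more often lower than dim genes.

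Of the 15 dim members, 12 were lower and 3 higher in Cat+, where 45.2% of the 7081 dim genes were lower. Their ratios ran from 0.865 for *Stmn2* to 1.47 for *Elavl2*, and 13 of the 15 lay within the SD between probe sets. By more than that SD 1 was lower and 1 higher, *Stmn2* and *Elavl2*, where 9.35% and 14.3% of all dim genes were. The median log2 difference was -0.06, against 0.01 over all dim genes. *Syt4* and *Cplx1*, the dim vesicle genes, were among them, with a ratio of 0.934 for *Syt4* and a signal of 4.62 in both samples for *Cplx1*.

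**Figure D3:**
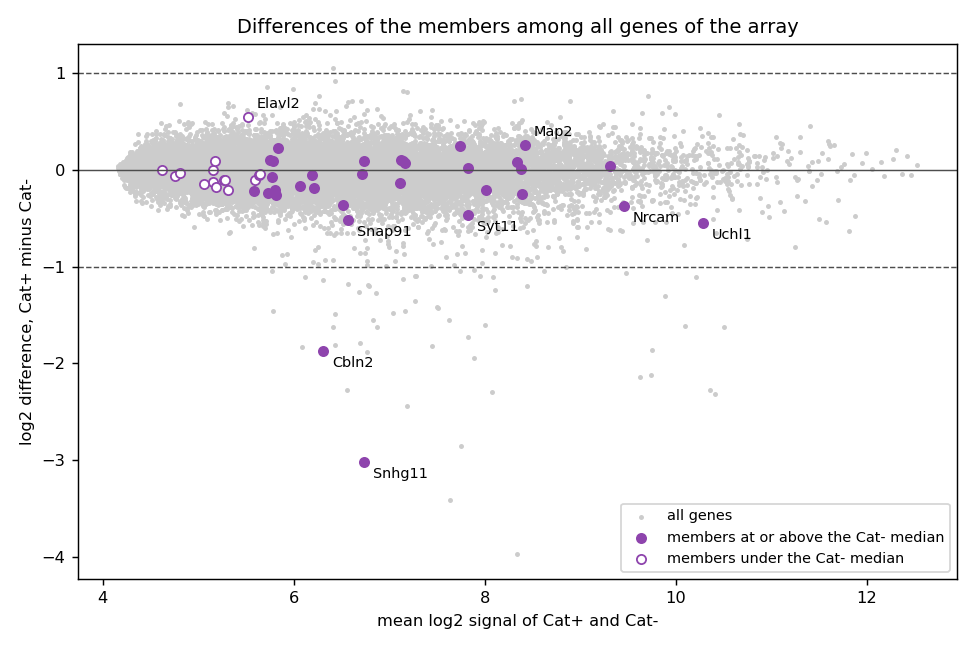
Log2 difference, Cat+ minus Cat-, against the mean log2 signal of both samples for all 18166 genes (grey) and for the 32 bright (filled) and 15 dim (open) members; dashed lines mark ratios of 0.5 and 2. *Snhg11* and *Cbln2* lie below the lower dashed line, and the other members lie between the lines.

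Other genes of neurons and synapses were read from a wider list of 135, of which 108 were measured and 69 were bright. None of the 108 passed the size rule, which 0.308% of all genes passed downward. Of the 69 bright genes, 49 were lower and 20 higher in Cat+, with a median log2 difference of -0.08, and 17 were lower and 5 higher by more than the SD between probe sets. Over all bright genes 55% were lower, with a median of -0.02, and 21.9% were lower and 14.8% higher by more than that SD. The lowest were *Basp1*, a growth cone membrane protein gene, at a ratio of 0.575, the tubulin gene *Tubb2a* at 0.697 and the NMDA receptor subunit gene *Grin2a* at 0.723. The highest were *Rims2*, a scaffold of the release site, at 1.22, *Synpr*, a vesicle protein gene, at 1.21 and the splicing factor gene *Nova1* at 1.18. No gene of the wider list was as low as *Cbln2*.

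Of 14 measured regulators of neuronal genes, 10 were higher and 4 lower in Cat+. Over all bright genes of the array 55% were lower, and over all dim genes 45.2%. *Rest* itself gave 8.03 in Cat+ and 7.81 in Cat-, a ratio of 1.17. Of the genes for its corepressors, *Rcor1* and *Rcor2* were each at 1.16, *Sin3a* at 1.15 and the histone deacetylase gene *Hdac2* at 1.19. *Hdac1*, the other deacetylase, was at 0.995, and *Ctdsp1*, a phosphatase that works with REST, was at 0.957. By more than the SD between probe sets 6 of the 14 were higher and 0 lower. Among all bright genes 14.8% were higher and 21.9% lower by as much, and among all dim genes 14.3% and 9.35%. The highest ratio of the 14 was 1.28, for a gene that is not among REST and its corepressors. A link between these regulators and the members was not tested. None of the 14 passed the size rule.

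Markers of the cells that the capsule preparation could hold also differed, and their part in the differences of the members was not tested. All 12 measured of 15 listed lens fiber genes were lower in Cat+, from *Lgsn* at a ratio of 0.0636 to *Cryba1* at 0.970, with a median log2 difference of -1.37. Their summed linear signal was 12760 in Cat+ and 24926 in Cat-. All 12 were bright, and over all bright genes of the array 55% were lower in Cat+. The 10 lens epithelium genes, all above the Cat- median, had a summed linear signal of 15986 in Cat+ and 15223 in Cat-, with 6 higher and 4 lower and a median log2 difference of 0.09. The labelled cell type was thus present by its markers in both samples, together with fiber transcripts.

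Markers of retinal neurons had no common direction. Over all bright genes of the array 55% were lower in Cat+, and over all dim genes 45.2%. The counts here pool both classes: 10 of 12 photoreceptor genes, 5 of 10 bipolar, amacrine and horizontal cell genes and 5 of 9 ganglion cell genes were bright. Of 12 measured photoreceptor genes 10 were higher in Cat+, with a median log2 difference of 0.26 and a summed linear signal of 2778 in Cat+ and 2132 in Cat-. The highest was the rod transducin gene *Gnat1* at a ratio of 1.51. Of 10 genes of bipolar, amacrine and horizontal cells 8 were lower, with 1922 in Cat+ and 2060 in Cat-, and 9 differed by less than the SD between probe sets. Without *Slc6a9* the other 9 genes summed to 860 in Cat+ and 923 in Cat-. *Trpm1*, the channel of ON bipolar cells, which pigment cells also express, was at a ratio of 0.605. Of 9 genes of retinal ganglion cells 6 were lower, with 594 in Cat+ and 618 in Cat-, and all 9 differed by less than the SD between probe sets. Of these 9 genes, 5 are also in the wider neuronal list.

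The same held for markers of nerve sheath and of muscle, of which 6 of 7 and 4 of 7 genes were bright. Over all bright genes 55% were lower in Cat+, and over all dim genes 45.2%. Of 7 genes of Schwann cells, nerve and glia 3 were lower and 4 higher, with a summed linear signal of 3912 in Cat+ and 3293 in Cat-. That sum was carried by *Pmp22*, a myelin protein gene that other tissues also express, and without it the other 6 genes summed to 467 in Cat+ and 505 in Cat-. Of 7 muscle genes 3 were lower and 4 higher, with 385 in Cat+ and 450 in Cat-, and *Pvalb*, which neurons also express, was at a ratio of 0.418. Without *Pvalb* the other 6 genes summed to 318 in Cat+ and 291 in Cat-. All 5 measured pigment cell genes of the iris and ciliary body were bright and higher in Cat+, with 1750 in Cat+ and 1545 in Cat-. The array has no true zero, so no marker was at 0.

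**Figure D4:**
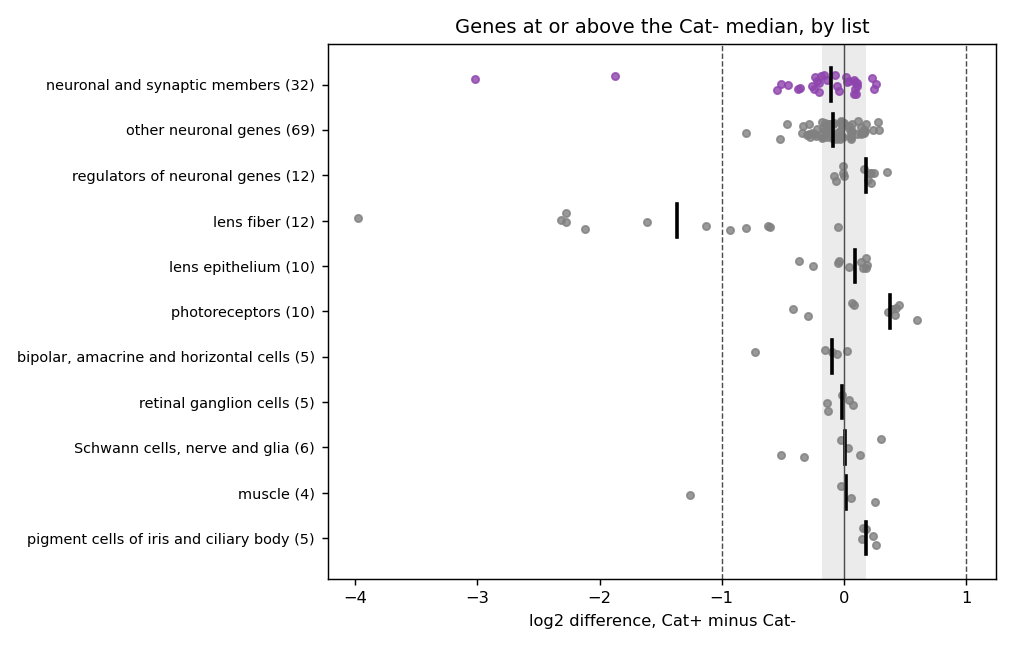
Log2 difference, Cat+ minus Cat-, of each gene with a Cat- signal at or above the array median, for the neuronal and synaptic members (top row) and the other lists, with the number of genes in brackets; black bars are medians, the grey band is 1 SD between probe sets of a gene (0.17) on either side of 0, and dashed lines mark ratios of 0.5 and 2. The lens fiber genes have a median of -1.37, and the medians of the members and of the other neuronal genes are -0.10 and -0.08. All lists were chosen with earlier results of these arrays known, and 7 of the 12 lens fiber genes were reported as low by the paper.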

How the data were processed

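The authors hybridized RNA from LECs of 1 Cat+ and 1 Cat- sample to GeneChip Rat Gene 2.0 ST arrays after labelling with the WT Pico Reagent Kit, normalized each array on its own (to a specific control or to its average intensity) and used GeneSpring. They deposited log2 values for 29870 probe sets. How background was corrected and probes were summarized is not given in the sources used here. The scale was taken as log2 from the range of the values.

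Per gene, Cat+ minus Cat- was taken on the log2 scale and turned into a ratio, with no further normalization or filter. By the platform annotation 18511 probe sets name 1 gene, 575 several and 10784 none; a gene took its brightest single-gene probe set, by the mean of both arrays. All 47 measured members matched a RefSeq gene of GRCr8 by Entrez number. With 1 array a group, the number of arrays limits precision and no test between the samples was run. The members and all lists were chosen with earlier results of these data known. All members could be named; of the wider neuronal list the 3 lowest and 3 highest bright genes were named, with *Rest* and its cofactors among the regulators, and at most 2 genes of each marker list. The neighbours of *Snhg11* and *Cbln2* lie outside that rule and were chosen after their values were seen. Alternatives were other scalings, probe set choices, splits, filters and size rules. The script that applies the size rule was tested on simulated data. Scripts ran under Python 3.11.15 with pandas 2.3.3 and NumPy 2.4.6, the loess curve used statsmodels 0.14.6, and plots used matplotlib 3.10.9.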

Additional observations from a re-analysis of the deposited data

How the results depend on the processing

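The counts of 2 members with a ratio under 0.5 and 0 members over 2 were the same under all 10 alternatives run for each. The alternatives were 3 scalings of the arrays, a floor at the 20th percentile, other choices of probe set, a filter on genes dim in both samples, and size rules of 1.5-fold and 3-fold. Not all of them could change the counts. Among the measured members only *Stx1a* has more than 1 single-gene probe set, and counting probe sets of several genes only added *Gria2*. The filter could not remove *Snhg11* and *Cbln2*, which are bright. The median log2 difference of the bright members stayed between -0.12 and 0.01, the last with the split at the 75th percentile of Cat-. At that split 8 of the 17 members then bright and 23 of the 30 members then dim were lower in Cat+. The shares of all genes lower at that split are not given here. With genes dim in both samples left out, *Elavl2* was the only dim member left, so 0 dim members were lower and their median was its own difference of 0.55. Of 362 values for single members under 8 alternatives, all 362 moved by less than the SD between probe sets of a gene. Many of these could not have moved. The probe set choices could move *Stx1a* alone, and the filter changes no value, so only the scalings and the floor could move the other members. *Cplx1*, with a difference near 0, turned its sign under centring, quantile normalization and the loess curve, and no other member did. No scaling moved the median of all genes by more than 0.1. No paired analysis was possible because each group has 1 sample, and for the same reason no sample could be left out. No depth or detection call comes with these arrays, so how far the Cat+ signals of *Snhg11* and *Cbln2* lie above background is not known.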
